A study of Homo sapiens with 4 samples.

Results

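The ERK feedback genes are the transcripts through which cells limit and report the activity of the kinase ERK. They were chosen by gene symbol as DUSP4, DUSP5, DUSP6, SPRY1, SPRY2, SPRY4, SPRED1, SPRED2, ETV4 and ETV5, which gave 10 of the 63677 genes in the deposited table, and each symbol had a single row. RNA was sequenced from MDA-MB-231, an established human cell line of triple-negative breast cancer. Cells had received either a control siRNA (siCt, 2 libraries) or a pool of siRNAs against the receptor tyrosine kinase AXL (siAXL, 2 libraries). A single cell line was used, the time after transfection is not given in the sources used here, and nothing in the labels says whether libraries of a group came from separate cultures, so the p-values measure the spread between these libraries, which may be technical.

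In the RAS-ERK pathway, a receptor at the membrane activates RAS, and RAS activates the kinases RAF, MEK and ERK in turn. ERK drives the transcription of its own brakes, so that the mRNAs of these brakes are widely read as a measure of recent ERK activity. DUSP phosphatases remove the activating phosphates from ERK, Sprouty and Spred proteins act further up at receptors, RAS and RAF, and ETV4 and ETV5 are transcription factors of the PEA3 group of the ETS family that carry the signal to further genes.

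The libraries held between 39574387 and 44585773 reads in genes. AXL was at 29189 and 30617 normalized counts in siCt but at 8658 and 7141 in siAXL, so the targeted transcript was lower in both libraries labelled siAXL (log2 fold change -1.93 with a standard error of 0.0918, limma adjusted p = 0.000585). Of the markers of this mesenchymal line, VIM, CD44 and EGFR lay between 7136 and 99296 normalized counts, and ESR1 and PGR had at most 3.25. ERBB2, EPCAM and CDH1, meant to be low, had siCt means of 3019, 595 and 92.2. Some of these markers differed between the groups. EGFR, itself a receptor upstream of ERK, had means of 7245 and 13962 in siCt and siAXL (log2 fold change 0.94, limma adjusted p = 0.00166), ERBB2 also rose (0.26, limma adjusted p = 0.0258), and CDH1 fell to a mean of 29.8 (-1.64, limma adjusted p = 0.00847), and their part in the results was not tested. The 6 markers of leukocytes, endothelium and basal epithelium (PTPRC, CD68, PECAM1, VWF, KRT5 and KRT14) summed to between 37.4 and 62.9 normalized counts in a library, and PECAM1 was at 0 in all 4.

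Knockdown of AXL was accompanied by a fall of SPRED1 to 80.3% of its siCt mean and a rise of DUSP5 to 118%. The other 8 ERK feedback genes did not pass the test. The test was limma's, on log2(normalized count + 1), where a normalized count is a read count divided by the size factor of its library. Calls were made at an adjusted p (Benjamini-Hochberg, over the 16064 genes tested) under 0.05. All 10 members passed the filter for low counts. Of all genes tested 18.7% were called, 10.8% higher and 7.91% lower in siAXL, and of the 10 members 20% were called, which is near that background. This fit took no account of the replicate number. With that number as a block, 6 members were called, beside 7310 of the 16064 genes tested. By edgeR 2 members were called, the same number as by DESeq2, beside 19.4% of all genes for edgeR (11.5% higher, 7.92% lower) and 21.3% for DESeq2 (12.1% higher, 9.19% lower). The median log2 fold change of the members was 0.035, against -0.0022 over all genes tested. Their median change in either direction was 0.11, against 0.17 over all genes tested. The genes tested were not matched to the members in read number. Some had far fewer reads than any member, such as SPRY3 with 15 to 23 per library. The summed normalized counts of the 10 genes were 101167 and 108477 in siCt against 100308 and 102885 for siAXL, so that the sum overlapped between the groups. DUSP4, the member with the most counts, weighs most in this sum. Of the members, 7 had a positive and 3 a negative log2 fold change. A permutation test of 2 libraries against 2 has 0.333 as its smallest two-sided p, so the calls depend on limma's pooling of the spread over genes. In bulk RNA, fewer cells with a transcript and less transcript per cell cannot be told apart.

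**Figure D1:**
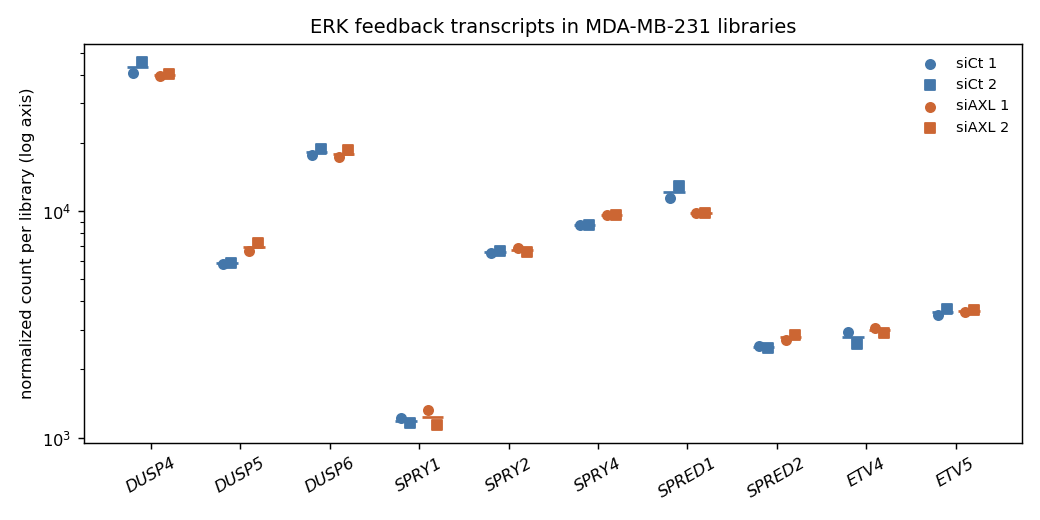
Normalized counts (log axis) of the 10 ERK feedback genes in each of the 4 libraries; circles are replicate 1, squares replicate 2, and short lines the group means (n = 2). DUSP4 lies highest and SPRY1 lowest in every library, and the siAXL points lie below the siCt points for SPRED1 and DUSP4 and above them for DUSP5, SPRY4 and SPRED2.

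The phosphatase transcripts were the most abundant. Per kilobase of exon, DUSP4 had 5944 ± 467 normalized counts in siCt (SD, n = 2), a level above that of 98.8% of the genes tested. DUSP6 followed with 3942 ± 157, DUSP5 with 2250 ± 9.32 and SPRY2 with 2173 ± 44.0. In the middle of the order were SPRED1 at 1476 ± 127 and SPRY4 at 1325 ± 3.12. ETV4 at 768 ± 65.7, ETV5 at 618 ± 25.7, SPRED2 at 487 ± 8.09 and SPRY1 at 300.0 ± 11.3 closed it, and SPRY1 was still above 61.1% of the genes tested. No neighbours in this order overlapped between their siCt libraries. In siAXL the order was the same except that SPRY4, at 1464 ± 3.96 per kilobase, lay above SPRED1, at 1185 ± 0.605. Exon lengths were taken from GENCODE release 29, and transcripts shorter than the full annotation would shift these levels.

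DUSP4 and DUSP5 encode phosphatases of the nucleus and DUSP6 a phosphatase of the cytoplasm that is highly selective for ERK. DUSP5 (ENSG00000138166) had 5867 and 5902 normalized counts in the siCt libraries, while the siAXL libraries had 6653 and 7205. Both siAXL libraries lay above both siCt libraries, and the siCt libraries were close to each other. The log2 fold change was 0.23 (standard error 0.0596, 95% interval 0.094 to 0.38, limma adjusted p = 0.0360). A larger change, in either direction, was common, being found in 38.1% of the genes tested, which were not matched for read number. The call was lost without siCt 2 (adjusted p = 0.0550), without siAXL 1 (0.0578) and without siAXL 2 (0.204), while the log2 fold change stayed between 0.18 and 0.29. A processed copy of the gene, DUSP5P1, had between 63 and 98 reads per library against at least 5447 of DUSP5.

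DUSP4 (ENSG00000120875) had 40738 and 45530 normalized counts in the siCt libraries and 39470 and 40467 in the siAXL libraries. The siAXL libraries were both lower, but siAXL 2 came close to siCt 1, and the siCt libraries differed from each other by more than the group means did. Its log2 fold change was -0.11 (95% interval -0.28 to 0.060, limma adjusted p = 0.335), and it was -0.028 without siCt 2 and -0.19 without siCt 1. DUSP6 (ENSG00000139318), the member most often used as a single readout of ERK activity, had 17744 and 18773 normalized counts in siCt and 17284 and 18669 in siAXL. The groups overlapped, and the log2 fold change was -0.023 (95% interval -0.17 to 0.13, limma adjusted p = 0.838). This interval leaves room for a fall to 0.887 times or a rise to 1.09 times the siCt level. GENCODE places an antisense gene, AC024909.2, over 1875 exon bases of DUSP6, and reads from it, if any, could not be told apart from those of DUSP6 because the strand setting of the counting is not given in the sources used here.

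**Figure D2:**
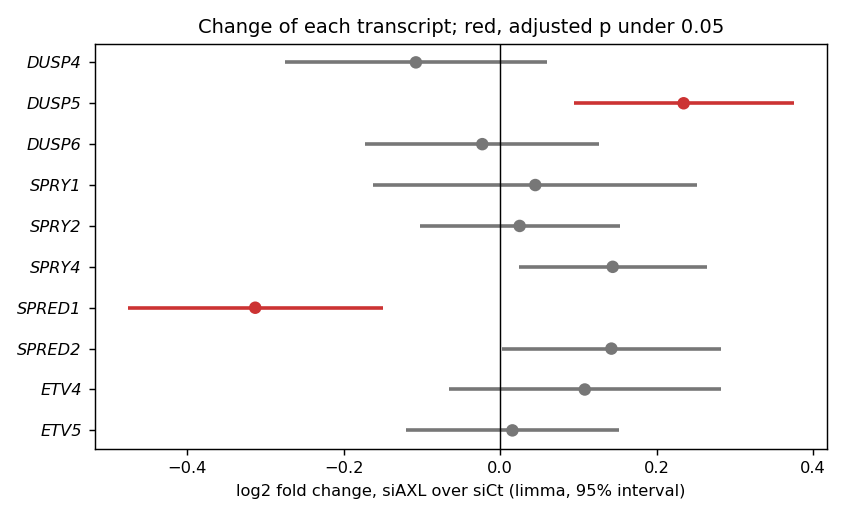
Log2 fold change of each ERK feedback gene, siAXL over siCt, as a point with its unadjusted 95% interval from limma (2 libraries per group); red marks an adjusted p under 0.05. DUSP5 at 0.23 and SPRED1 at -0.31 are the called genes, and the intervals of DUSP4, DUSP6, SPRY1, SPRY2, ETV4 and ETV5 include 0.

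Sprouty proteins restrain signalling from growth factor receptors to RAS and RAF. SPRY4 (ENSG00000187678) had 8685 and 8714 normalized counts in siCt and 9593 and 9630 in siAXL, with close replicates in both groups. The siAXL libraries lay above the siCt libraries, by a log2 fold change of 0.14 (standard error 0.0509, 95% interval 0.024 to 0.26, limma adjusted p = 0.0929), which did not pass the threshold. SPRY2 (ENSG00000136158) had 6508 and 6697 normalized counts in siCt and 6846 and 6589 in siAXL. The siAXL libraries enclosed the siCt 2 value, and the log2 fold change was 0.025 (95% interval -0.10 to 0.15, limma adjusted p = 0.793). SPRY1 (ENSG00000164056), the member with the fewest reads, had 1221 and 1157 normalized counts in siCt and 1320 and 1139 in siAXL. Here the siAXL libraries fell on either side of the siCt libraries, with a log2 fold change of 0.045 (95% interval -0.16 to 0.25, limma adjusted p = 0.767), and the value went from -0.062 without siAXL 1 to 0.15 without siAXL 2.

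Spred proteins bind neurofibromin, the RAS-inactivating protein encoded by NF1, and bring it to the membrane. SPRED1 (ENSG00000166068) had 11446 and 12931 normalized counts in the siCt libraries, while the siAXL libraries had 9794 and 9787. Both siAXL libraries were lower than both siCt libraries and nearly equal to each other, while siCt 2 lay well above siCt 1. The log2 fold change was -0.31 (standard error 0.0691, 95% interval -0.48 to -0.15, limma adjusted p = 0.0238). Of the genes tested, not matched for read number, 25.8% changed by more. Without siCt 2 the change was -0.23 (adjusted p = 0.0787), and the call was also lost without siAXL 1 (0.0736) and without siAXL 2 (0.0685). SPRED2 (ENSG00000198369) had 2539 and 2480 normalized counts in siCt and 2699 and 2842 in siAXL. It lay higher in both siAXL libraries, with a log2 fold change of 0.14 (standard error 0.0592, 95% interval 0.0025 to 0.28, limma adjusted p = 0.141), and did not pass the threshold. NF1 itself had siCt and siAXL means of 1887 ± 83.7 and 1930 ± 159 normalized counts (SD, n = 2 in each).

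The relation between the paralogues can be read within each library, where it does not depend on how libraries were scaled. SPRED1 had 4.51 times the normalized count of SPRED2 in siCt 1 and 5.21 times in siCt 2, but 3.63 times in siAXL 1 and 3.44 times in siAXL 2. On the log2 scale this ratio was 0.46 lower in siAXL, from 2.28 ± 0.148 to 1.82 ± 0.0533 (SD, n = 2 in each). Per kilobase, SPRED1 made up 75.1% ± 1.92 of the SPRED1 and SPRED2 transcripts in siCt and 68.8% ± 0.793 in siAXL. For the phosphatases, DUSP5 was at 0.144 and 0.130 times the count of DUSP4 in siCt and at 0.169 and 0.178 times in siAXL. Its share of the DUSP4, DUSP5 and DUSP6 transcripts went from 18.6% ± 0.892 to 22.0% ± 0.404, while that of DUSP6 was 32.5% ± 0.401 and 32.2% ± 0.530. The log2 ratio of SPRY4 to SPRY2 was 0.40 ± 0.026 in siCt and 0.52 ± 0.043 in siAXL, higher in both siAXL libraries, and the ratios of SPRY1 to SPRY2 and of ETV4 to ETV5 overlapped between the groups. These ratios show unequal change of paralogues and were chosen after the values were seen, and with 2 libraries a group their smallest permutation p is 0.333.

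**Figure D3:**
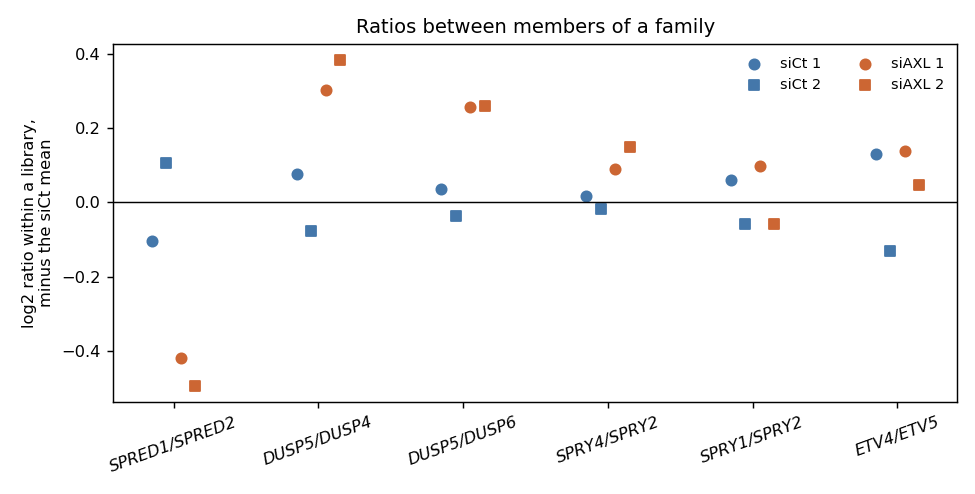
Log2 ratio of the normalized counts of paralogues within each library, after subtraction of the siCt mean of that ratio; circles are replicate 1 and squares replicate 2. Both siAXL libraries lie below both siCt libraries for SPRED1/SPRED2 and above them for DUSP5/DUSP4, DUSP5/DUSP6 and SPRY4/SPRY2, and the libraries mix for SPRY1/SPRY2 and ETV4/ETV5.

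Sequence features of the 3′ UTR, which the choice of genes did not use, were read as a description. The 5585-base 3′ UTR of SPRED1 held 24 copies of ATTTA, the core of AU-rich elements, which are known as binding sites of proteins that control mRNA decay. Only 1.62% of 12988 tested genes with a 3′ UTR had as many, although per kilobase its 4.30 copies were exceeded or equalled by 14.0% of them. SPRY4 had 8 copies, DUSP4 6, SPRED2 5, SPRY1 and ETV5 4 each, SPRY2 2 and DUSP6 1, and DUSP5 and ETV4 had 0. SPRED1 and SPRED2 were also the only members whose 3′ UTR held CACATCA, with 1 copy each. This 7-base word was chosen with earlier results of these libraries known. It occurred in 9.68% of the tested genes with a 3′ UTR, and in 18.9% of the 3226 with a 3′ UTR of 2000 to 6000 bases, the range of both SPRED genes. SPRED1 was lower and SPRED2 higher in siAXL, and a part of the word in either value was not tested. The sites are shown for that reason, with 2 neighbouring ATTTA copies of SPRED1. They were read from GENCODE release 29 transcripts (GRCh38) at chr15:38356988-38357017 (plus strand, 3′ UTR of SPRED1), chr2:65312316-65312345 (minus strand, 3′ UTR of SPRED2) and chr15:38353346-38353375 (plus strand, 3′ UTR of SPRED1), and are written 5′ to 3′ as DNA with CACATCA or ATTTA in capitals.
SPRED1 CACATCA site: tttacattcttCACATCAagttaataccca
SPRED2 CACATCA site: ggactcaatttCACATCAccaaattcctca
SPRED1 ATTTA pair: taagaaagcATTTAtATTTAtatgacagct

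ETV4 and ETV5, the transcription factors among the members, showed no change past the test. ETV5 (ENSG00000244405) had 3479 and 3689 normalized counts in siCt and 3595 and 3647 in siAXL. Both siAXL values lay between the siCt values, and the log2 fold change was 0.016 (95% interval -0.12 to 0.15, limma adjusted p = 0.880). Its sign turned with the scaling, to -0.014 when only the library size was used. ETV4 (ENSG00000175832) had 2939 and 2604 normalized counts in siCt and 3055 and 2910 in siAXL. The groups overlapped, with a log2 fold change of 0.11 (95% interval -0.066 to 0.28, limma adjusted p = 0.353) that ran from 0.021 without siCt 2 to 0.20 without siCt 1. ETV4 shares 68 exon bases with DHX8 on the opposite strand, a helicase gene of similar read number with a log2 fold change of 0.13 (limma adjusted p = 0.190). ETV1, the third gene of the PEA3 group, was at 6941 ± 255 normalized counts in siCt and 7016 ± 105 in siAXL (SD, n = 2 in each).

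Across the 10 members, the groups did not overlap in 5, with siAXL above siCt in DUSP5, SPRY4 and SPRED2 and below it in SPRED1 and DUSP4. This 50.0% is to be read against 61.2% of all genes tested (30.6% above and 30.5% below). The counting error of a single library, taken where each gene had its fewest reads, ran from 0.496% of the count in DUSP4 to 3.06% in SPRY1. In DUSP5 it was 1.35%, against a rise of 17.8% in the mean. For SPRY1 it was close to the change of 3.40%, and for ETV5, at 1.71%, it was above the change of 1.04%. Counting error is a lower limit of the noise, because libraries of the same group differed by far more than counting alone would give. Averaged over genes, chi-square was 21.9 for the siCt pair and 19.8 for the siAXL pair. The rise of DUSP5 is therefore to be judged by its limma standard error (0.0596 for a log2 fold change of 0.23), not by its counting error.

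**Figure D4:**
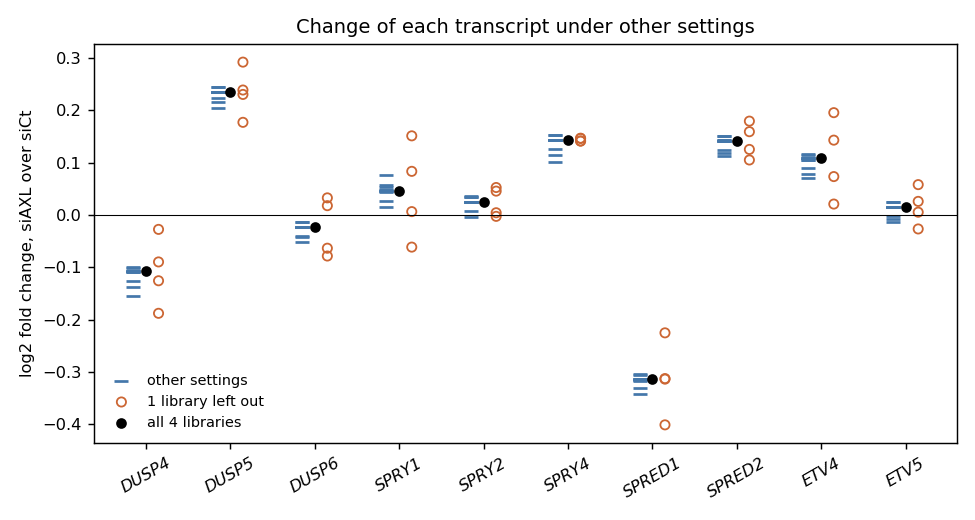
Log2 fold change of each ERK feedback gene with all 4 libraries (black), with 1 library left out (open circles) and under other scalings, pseudocounts, filters and tests (dashes). DUSP5 and SPRED1 keep their sign throughout, as do DUSP4, SPRED2 and ETV4, which were not called. SPRY4 stays between 0.10 and 0.15, and DUSP6, SPRY1, SPRY2 and ETV5 cross 0.

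Other genes of the pathway were taken from 4 lists. Their calls are to be read against the 18.7% of all genes tested that were called (10.8% higher, 7.91% lower in siAXL). Among 7 other phosphatases of MAP kinases (DUSP1, DUSP2, DUSP7, DUSP8, DUSP9, DUSP10 and DUSP16), 5 were expressed enough to be tested, and 1 was called. DUSP10, which acts mainly on the stress kinases p38 and JNK, had 1202 and 1296 normalized counts in siCt and 1049 and 1011 in siAXL (log2 fold change -0.28 with a standard error of 0.0725, limma adjusted p = 0.0393). It was no longer called in 3 of the 4 fits that left out a library, those without siCt 2, siAXL 1 or siAXL 2, in which its adjusted p reached 0.165. The other 4 tested phosphatases, DUSP1, DUSP7, DUSP8 and DUSP16, lay between 0.017 and 0.18. Of the relatives SPRY3, SPRED3 and ETV1 and the partner NF1, 0 were called by limma, edgeR or DESeq2, and 1 had an unadjusted limma p under 0.05. That was SPRED3, with 149 and 104 normalized counts in siCt and 191 and 179 in siAXL (log2 fold change 0.57 with a standard error of 0.186, limma adjusted p = 0.0756). Without siCt 1 it was 0.82 (adjusted p = 0.000689).

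Transcripts of 11 further genes known to follow ERK activity did not move one way. By limma 5 were called (45.5%, against 18.7% of all genes tested), 4 lower and 1 higher in siAXL. By edgeR with TMM scaling 4 were called (3 lower, 1 higher), LIF not among them, beside 19.4% of all genes. By DESeq2 5 were called, beside 21.3% of all genes. The list, chosen with earlier results of these data known, was not tested as a set. Its median log2 fold change was -0.055. IER3, an immediate early gene of cell survival that is also a target of other stress pathways, fell furthest, from 51923 and 57252 normalized counts in siCt to 34393 and 32154 in siAXL (log2 fold change -0.71 with a standard error of 0.0722, limma adjusted p = 0.00241). It was called in each fit with 1 library left out. Its symbol has 6 rows, of which the row with the most reads was used. PHLDA1, a pleckstrin homology domain gene, had 48068 and 50390 normalized counts in siCt and 41497 and 40754 in siAXL (-0.26, limma adjusted p = 0.0271). CCND1, which encodes cyclin D1, had 32432 and 32760 in siCt and 28078 and 27789 in siAXL (-0.22, limma adjusted p = 0.0320). LIF, a cytokine of the interleukin-6 family, went from 7065 ± 228 to 6132 ± 211 (SD, n = 2 in each, -0.20, limma adjusted p = 0.0479). The ephrin receptor EPHA4 went the other way, from 1151 and 1107 normalized counts to 1483 and 1463 (0.38, standard error 0.0650, limma adjusted p = 0.0103). The calls of CCND1 and LIF were lost without any 1 of the 4 libraries (adjusted p of up to 0.157 and 0.234), that of PHLDA1 without siCt 2, siAXL 1 or siAXL 2 (up to 0.173), and that of EPHA4 without siAXL 1 (0.0510). The other 6, EPHA2, FOSL1, EGR1, MYC, FOS and MAFF, lay between -0.060 and 0.40 with adjusted p-values of at least 0.201.

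Among 15 genes of the cascade itself, 1 was called, higher in siAXL (6.67%, against 18.7% of all genes tested). MAP2K1, which encodes the ERK-activating kinase MEK1, had 4203 and 3703 in siCt and 5271 and 5705 in siAXL (log2 fold change 0.47 with a standard error of 0.0772, limma adjusted p = 0.00908). It was called in each fit with 1 library left out. The other 14 (HRAS, NRAS, ARAF, BRAF, MAP2K2, MAPK3, KSR1, SOS1, SOS2, GRB2, SHC1, PTPN11, GAB1 and FRS2) lay between -0.17 and 0.18, with adjusted p-values of at least 0.0886. The median log2 fold change of the 15 was 0.041. Of 9 genes that respond to transfected RNA (IFIT1, IFIT2, IFIT3, ISG15, OAS1, MX1, DDX58, IFIH1 and CXCL10), 0 were called by limma, 2 had an unadjusted p under 0.05, and 1 was called by edgeR and 0 by DESeq2. IFIT1 was nearest to the threshold, at 1358 ± 45.3 normalized counts in siCt and 1122 ± 87.3 in siAXL (SD, n = 2 in each, log2 fold change -0.28, limma adjusted p = 0.0504).

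**Figure D5:**
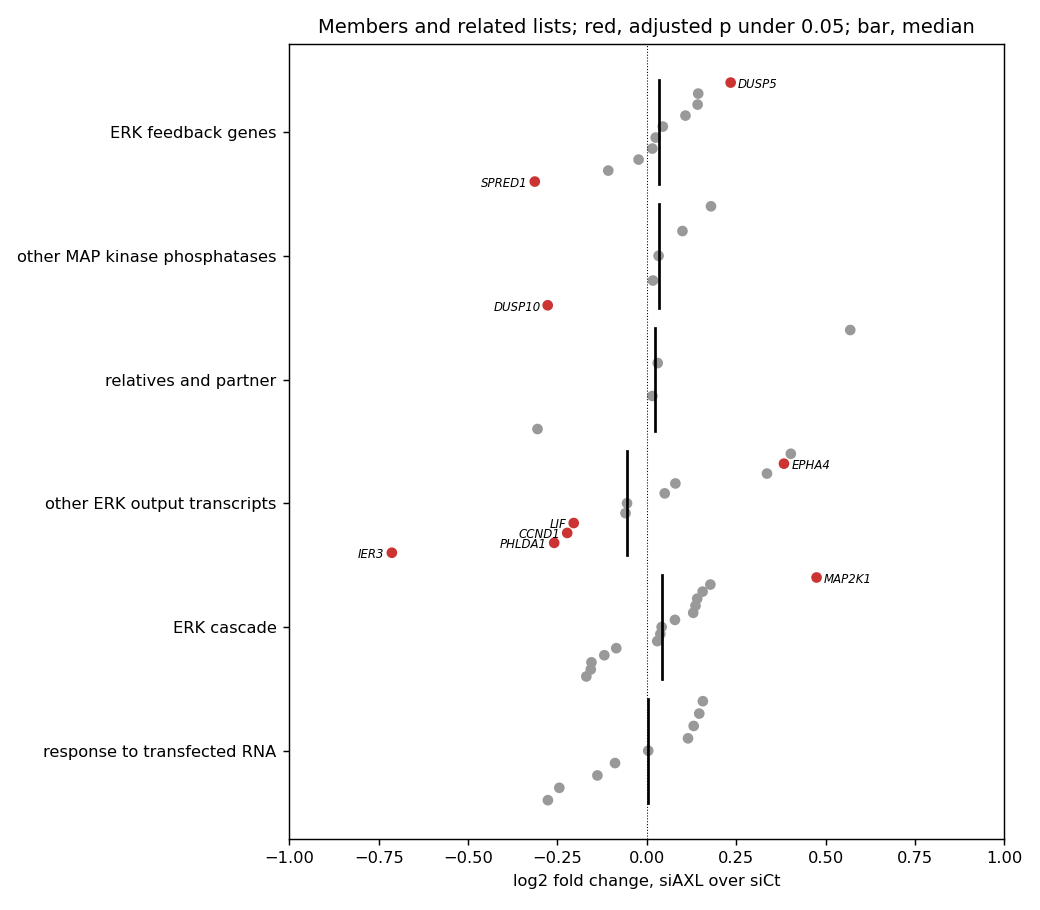
Log2 fold changes, siAXL over siCt, of the ERK feedback genes and of the tested genes of 5 related lists; each point is a gene, red points have a limma adjusted p under 0.05 and are named, and bars are list medians. The medians lie between -0.055 and 0.041, and in the ERK cascade MAP2K1 stands above the other genes.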

How the data were processed

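RNA from 2 siCt and 2 siAXL libraries was sequenced on a HiSeq. The submitters' processing notes name CASAVA 1.8, TopHat2 2.0.10, HTSeq 0.5.3, DESeq2 1.4.5 and the build GRCh37. The annotation and the strand setting are not given in the sources used here. The authors deposited 1 table with 4 columns of signal, which are read counts over a size factor that DESeq2 set for each library. Columns of the authors' own comparison (mean signal, log2 fold change and its error, a test score, the p-value before and after adjustment) stayed unused. Dividing each deposited column by its smallest value above 0 gave whole numbers, within 0.01, for 100% of values, and these were taken as reads.

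Samples were grouped by their titles. filterByExpr of edgeR, applied to the reads, kept 16064 genes, which were tested with limma 3.58.1 (lmFit, eBayes with trend, two-sided, no covariates) on log2(normalized count + 1) in R 4.3.3, which understates changes of low genes. Alternatives were edgeR 4.0.16 and DESeq2 1.42.0 on the recovered reads, other scalings, pseudocounts, filters and thresholds, a replicate block, removal of GC and length trends, and fits without each library. The limma, edgeR and DESeq2 fits were also run on simulated counts of independent libraries. The simulation held no effect of the replicate number, so it cannot show how the calls fare under such an effect. GENCODE release 29 was matched by Ensembl identifier for lengths and GC content (97.4% of tested genes) and for 3′ UTRs (12988 of the 16064). The 3′ UTR is that of the transcript with the longest coding sequence, and words were searched on the transcribed strand with overlaps counted. The members, the lists and the 7-base word were chosen with earlier results of these data known. Named genes are AXL, the members, up to 3 called genes per direction of each list, all genes of lists with under 3 calls, and well-read genes overlapping a member on the other strand. The other 6 transcripts of ERK output and LIF, and the marker genes, were named beyond that rule, after their values were seen. Some genes of the cascade list are not reported here.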

Additional observations from a re-analysis of the deposited data

How the results depend on the processing

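Changes as small as those of SPRY1 and ETV5 are within or near the counting error of a single library. The number of members called was 2 in both edgeR fits, DESeq2, every scaling, both other pseudocounts and after removal of the GC and length trends, and 0 when all genes with a count of 1 or more in some library were tested (1097 of all genes called), at an adjusted p under 0.01 (859) and with an absolute log2 fold change of at least 0.5 as well (907), where DUSP5 at 0.23 and SPRED1 at -0.31 lost their calls. Counting members whose groups do not overlap, a rule added after the values were seen, gave 5. Without 1 library, 0 to 2 members and 1301 to 3900 genes were called, and the log2 fold changes ran from 0.18 to 0.29 in DUSP5, -0.40 to -0.23 in SPRED1, -0.079 to 0.033 in DUSP6, -0.062 to 0.15 in SPRY1, -0.0027 to 0.052 in SPRY2 and -0.027 to 0.058 in ETV5. In these fits the group with 1 library is assumed to vary like the other. Signs also turned under scaling by library size in SPRY2 (-0.0044) and ETV5 (-0.014), and in ETV5 under upper quartile scaling (-0.0024) and removal of the GC and length trends (-0.0080). The cause was not tested.

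Same-numbered libraries of the groups deviated together from their group means (Pearson r across 16064 genes of 0.27, and of 0.63 over the 12069 with a mean of at least 100), but the labels do not say what a number stands for. Mitochondrial genes held 3.70% of the reads in siCt 1 and 3.78% in siAXL 1, but 2.11% in siCt 2 and 2.28% in siAXL 2. This share thus went with the replicate number, and the cause was not tested. With the replicate number as a block, 6 members (4 higher, 2 lower) were called, beside 7310 of the 16064 genes tested (3737 higher, 3573 lower). DUSP4 (-0.11), SPRY4 (0.14), SPRED2 (0.14) and ETV4 (0.11) joined DUSP5 and SPRED1. With the block, 2 of the 5 tested other phosphatases, 1 of the 4 relatives and partner and 6 of the 11 ERK output transcripts were called. So were 9 of the 15 cascade genes and 4 of the 9 genes that respond to transfected RNA.

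Of all genes called, 57.7% were higher in siAXL, and 46.8% under scaling by library size. The list of genes that respond to transfected RNA had 1 gene called in both edgeR fits, under library size, TMM and upper quartile scaling, and without the GC and length trends. With that wider filter, 0 of the other phosphatases, 2 of the ERK output transcripts and 0 of the cascade were called. At an adjusted p under 0.01, the ERK output transcripts had 1 called (lower in siAXL), the cascade 1 (higher) and the phosphatases 0. With an absolute log2 fold change of at least 0.5 beside an adjusted p under 0.05, the ERK output transcripts had 1 (lower). The cascade and the phosphatases then had 0. Without 1 library, 0 to 1 of the phosphatases, 0 to 1 of the relatives, 2 to 3 of the ERK output transcripts and 0 to 2 of the genes that respond to transfected RNA were called.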
